A study of Caenorhabditis elegans with 16 samples.

Results

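The signal of H3K9me2, dimethylation of lysine 9 of histone H3, was described in Caenorhabditis elegans embryos that carry the met-2 allele n4256 on chromosome III. The members are the 500 bp windows of the genome in which none of the 4 input columns of the series held fewer than 20 counts. They number 191140 of 198087 windows (96.5%), and no ChIP value entered the choice. In each of them the H3K9me2 ChIP of met-2 was set against its own input. The series comprises chromatin immunoprecipitation sequencing (ChIP-seq) of H3K9me2 and H3K9me3 in met-2(n4256) and set-25(n5021) early embryos younger than the bean stage, with cultures at 20 °C. The labels list 16 samples, 4 of which are H3K9me2 ChIP and input of met-2 in 2 biological replicates. The counts come as 1 column per group, so no value below has a replicate check, no test was run, and intervals cover counting error only. Wild type was not analysed here, so the amount lost could not be measured, and H3K9me2 in set-25 embryos served as the comparison.

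H3K9me2 is a repressive histone mark. In worms it covers repeats and silent genes, mostly on the distal arms of the autosomes, and helps to hold this chromatin at the nuclear envelope. MET-2, a SETDB1-like methyltransferase, makes mono- and dimethylated H3K9 in embryos. SET-25 carries out H3K9 trimethylation there, and trimethylated H3K9 (H3K9me3) marks silent heterochromatin, including transposable elements.

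The H3K9me2 ChIP of met-2 held 26568332 counts and its input 34007808, with 137 and 185 counts in the median kept window. The other 6 columns held 19732750 to 114221896 counts. The mutated genes were looked for as runs of at least 2 windows of III with at most 2 counts in both inputs of one strain and at least 50 in the H3K9me2 input of the other, and each strain had 1 such run. In the run of met-2, from 8376501 to 8377500, the met-2 H3K9me2 ChIP and input both held 0 counts, against 74 and 513 in the set-25 H3K9me2 ChIP and input. In the run of set-25, from 13287501 to 13289000, they held 182 and 376 counts, against 6 and 4 in set-25. The search rule set most of the input counts in advance but none of the ChIP counts. The H3K9me3 ChIP and input of met-2 held 6 and 0 counts in the first run and 1439 and 4332 in the other, so these 6 columns carried the runs as labelled. The H3K9me3 columns labelled set-25 did not, with 15 and 2 counts in the first run and 1431 and 2 in the other. Of them only the input was used, in the floor of 20 counts, and with the floor set on the other 3 inputs the enriched windows below numbered 2564 in place of 2563.

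H3K9me2 over input in met-2 embryos was nearly flat along the genome. Each column was scaled to its total and given as CPM, counts per 1000000. The log2 ratio of ChIP to input, each with 0.1 CPM added, had a median of -0.01 over the 191140 windows of met-2 and of -1.33 over those of set-25. The central 50% of windows lay between -0.30 and 0.28 in met-2, against -1.88 and -0.41 in set-25. The SD over windows was 0.46 in met-2, where counting error alone gives 0.18, and 1.40 in set-25, where counting error gives 0.27. The highest window stood at 2.41 in met-2 and at 6.20 in set-25. The samples are bulk embryos, so fewer marked cells and less mark per cell cannot be told apart. The long upper tail of set-25 was nearly missing in met-2.

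**Figure D1:**
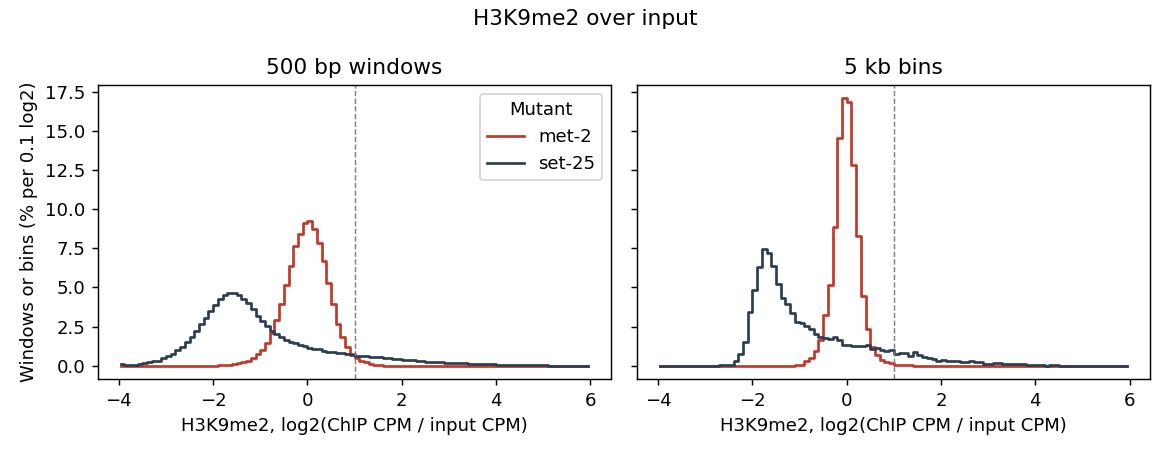
Distribution of the H3K9me2 log2 ratio of ChIP to input CPM (x axis) in percent of 500 bp windows (left) or 5 kb bins (right) per 0.1 log2, for met-2 (red) and set-25 (dark blue), with values beyond the axis drawn in its end steps. The dashed line is the threshold of 1; 1.34% of met-2 windows and 0.238% of met-2 bins lie to its right, against 10.3% and 10.6% in set-25.

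Enrichment was called where the log2 ratio exceeded 1, that is 2-fold. In met-2, 2563 windows (1.34%) passed and 4306 (2.25%) lay below -1, so the low tail held more windows than the high one. In set-25, 19606 windows (10.3%) passed. Counts were then summed in bins of 5 kb, of which 18938 had at least 8 of 10 windows kept. In met-2, 45 bins (0.238%) exceeded 1 and 555 (2.93%) exceeded 0.5, with 1.39 as the highest value. On the low side of met-2, 12 bins (0.063%) lay below -1 and 665 (3.51%) below -0.5. In set-25, 2013 bins (10.6%) exceeded 1, with 5.23 as the highest. Between 500 bp and 5 kb the share above 1 thus fell in met-2 and stayed level in set-25.

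The fall with scale was steady. In met-2, 0.416% of 2.5 kb bins, 0.105% of 10 kb bins and 0.052% of 50 kb bins, which is 1 bin of 1924, exceeded 1. In set-25 the same shares were 10.4%, 11.1% and 11.9%. Neighbouring windows of met-2 correlated at 0.46 over 188773 adjacent pairs and neighbouring 5 kb bins at 0.45, against 0.80 and 0.76 in set-25. Neighbours share a library and an input, so these are descriptions of how far values extend along the chromosome.

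As a share of all counts, the met-2 ChIP had little excess in the regions where set-25 had most. The 332 H3K9me2 domains of set-25, runs of at least 10 adjacent enriched windows that span 2.68 Mb, held 2.83% of the met-2 H3K9me2 ChIP and 2.40% of its input, a ratio of 1.18 (log2 0.24, 95% counting interval 0.23 to 0.24). The same domains held 27.8% of the set-25 H3K9me2 ChIP and 2.796% of its input, a ratio of 9.93, but set-25 itself chose these domains. The excess of ChIP over input was 0.425 percentage points in met-2 and 24.96 in set-25.

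Over its own input, a larger excess of met-2 H3K9me2 lay where met-2 embryos carry H3K9me3. The 214 H3K9me3 domains of met-2, found in the same way and covering 1.78 Mb, held 2.92% of the met-2 H3K9me2 ChIP and 1.73% of its input, a ratio of 1.69. The excess was 1.19 percentage points, although these domains cover less of the genome than the 332 of set-25. All 7830 windows enriched for H3K9me3 in met-2 together held 5.62% of the H3K9me2 ChIP and 3.62% of its input. They held 5.72% of the met-2 input of the H3K9me3 experiment. Of that input the 214 domains held 2.86% and the 332 domains of set-25 held 5.21%, so the excess depended on the input used.

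All 45 of the 5 kb bins above 1 in met-2 also exceeded 1 for H3K9me3 of met-2, where 4.17% of all bins did. Their H3K9me3 had a median of 3.20 and a lowest value of 2.00. Of the 555 bins above 0.5 for H3K9me2, 388 (69.9%) exceeded 1 for H3K9me3. H3K9me2 of set-25 exceeded 1 in 17 of the 45 (37.8%) and in 114 of the 555 (20.5%), where 10.6% of all bins did. The highest residual bins were thus bins with strong H3K9me3 in the same mutant.

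Bins were next divided by both other measurements. The 697 bins with H3K9me3 of met-2 above 1 and set-25 H3K9me2 not above 1 had a median met-2 H3K9me2 of 0.48, and 331 (47.5%) exceeded 0.5. The 93 bins above 1 in both had a median of 0.61, and 57 (61.3%) exceeded 0.5. The 1920 bins with set-25 H3K9me2 above 1 and met-2 H3K9me3 not above 1 had a median of 0.01, and 57 (2.97%) exceeded 0.5. The 16228 remaining bins had a median of -0.03, and 110 (0.678%) exceeded 0.5. None of the bins in the last 2 classes exceeded 1. Their medians were close, but the share above 0.5 was higher in the class with set-25 H3K9me2 above 1.

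At single windows met-2 H3K9me2 over its own input was higher in each step of H3K9me3 above 0. Its median was -0.02 in the 16324 windows with H3K9me3 of met-2 at or below -1, -0.03 in the 128805 windows between -1 and 0, 0.01 between 0 and 1, 0.49 between 1 and 2, 0.81 between 2 and 3 and 1.14 in the 768 windows above 3. The share of windows called enriched for H3K9me2 in these steps was 1.29%, 0.445%, 0.985%, 6.80%, 27.3% and 66.1%. The ChIP column itself moved, from a median of 5.16 CPM between -1 and 0 through 6.93 and 8.17 to 9.01 CPM in the highest, while its input moved the other way, from 5.47 to 4.12 CPM. The 2 marks have separate ChIP and separate input columns, and whether the H3K9me2 antibody also binds H3K9me3 was not tested. Over the met-2 input of the H3K9me3 experiment the direction turned, with medians of 0.55, 0.35, 0.27 and 0.13 in the 4 steps above 0. Below them the medians were -0.19 at or below -1 and 0.33 between -1 and 0, against 0.37 over all kept windows. This input is also the denominator of the H3K9me3 steps.

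Against H3K9me2 of set-25 the steps were small. The met-2 median was -0.20 in the 39031 windows at or below -2 in set-25, 0.09 between -1 and 0, 0.15 between 1 and 2 and 0.17 in the 1064 windows above 4. Without windows above 1 for H3K9me3 the last of these was 0.15. The share called enriched was 0.374% at or below -2 in set-25 and 4.79% above 4, against 1.34% of all windows. Without the H3K9me3 windows these shares were 0.181% and 3.24%. The median over the own input thus moved little from step to step above -1, while the share of enriched windows was higher in the high steps than in the low ones. The ChIP itself had medians of 5.46 CPM between -2 and -1 and 4.40 CPM above 4, and its input fell further, from 5.68 to 3.98 CPM. Over the H3K9me2 input of set-25, also the denominator of these steps, the medians were 0.06 between -1 and 0 and -0.0004 above 4. Over the met-2 input of the H3K9me3 experiment they were 0.19 and -0.22.

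**Figure D2:**
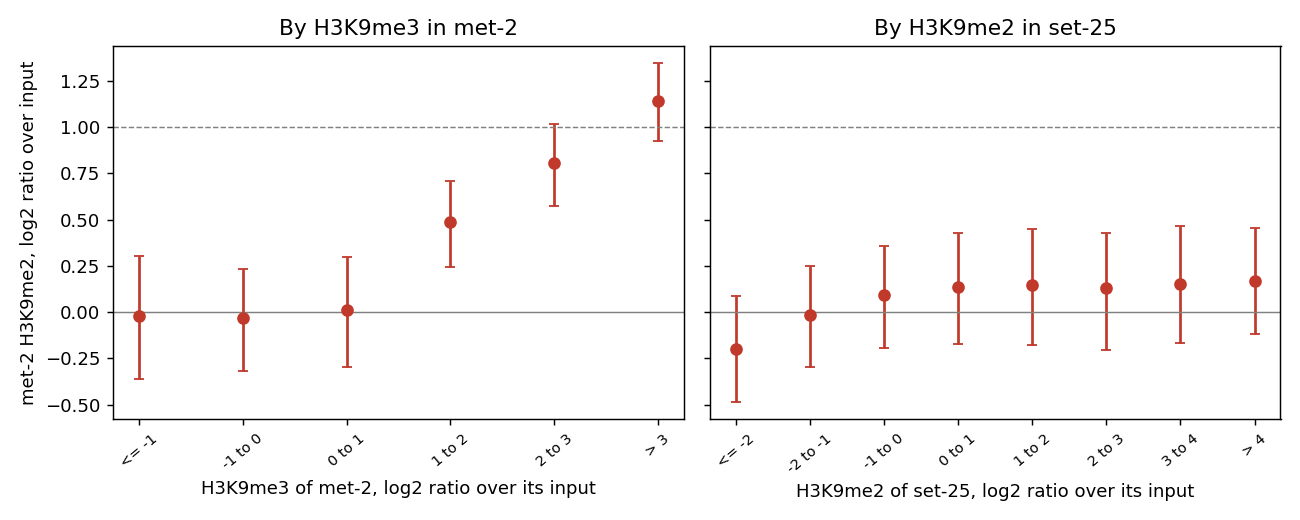
Median (points) and quartiles (bars) of the met-2 H3K9me2 log2 ratio over input in 500 bp windows (y axis), by steps of the H3K9me3 log2 ratio in met-2 (left) and of the H3K9me2 log2 ratio in set-25 (right). The median reaches 1.14 in the highest H3K9me3 step and 0.17 in the highest set-25 H3K9me2 step.

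Flanks of the same chromosome gave a measure that does not depend on scaling. For each domain the flanks were the kept windows 5 to 15 kb beyond either edge that were not enriched for the mark of the domain, with at least 10 such windows required. Of the 214 H3K9me3 domains 210 could be used, and all 210 exceeded their flanks in met-2 H3K9me2, with a median difference of 0.68 (quartiles 0.52 and 0.83) and a range from 0.07 to 1.30. Without input, the ChIP of these domains exceeded that of the flanks by a median of 0.50, or 1.41-fold, in 190 of 210. The median difference was 0.69 for the 49 domains on arms, 0.68 for the 135 in middle parts and 0.62 for the 26 on X.

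The H3K9me2 domains of set-25 also stood above their flanks in met-2, by less. Of 332 domains 295 could be used, with a median difference of 0.37 (quartiles 0.15 and 0.61), above 0 in 256. In set-25 itself the median difference was 2.79. The 30 domains of the 295 that exceeded 1 for H3K9me3 of met-2 had a median of 0.86, above 0 in all 30. The other 265 had a median of 0.34, above 0 in 226. Of this 0.34 the ChIP and the input each made a part, since the ChIP of these 265 domains stood above its flanks by a median of 0.15 and the input below them by a median of 0.15. At the 30 domains with H3K9me3 the ChIP difference had a median of 0.28, above 0 in 24. The input difference there had a median of -0.38. Over the met-2 input of the H3K9me3 experiment the medians were -0.89 at the 30 domains and -0.46 at the 265.

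The choice of input changed the size and the direction of these differences. Against the input of the H3K9me3 experiment of met-2, the median difference became -0.10 at the 210 H3K9me3 domains and -0.47 at the 295 H3K9me2 domains of set-25. That input itself stood above its flanks at both, by medians of 0.69 and 0.64, while the H3K9me2 input of met-2 stood below them, with medians of -0.12 and -0.16. The 2 met-2 inputs correlated at -0.27 over windows (Spearman), against 0.72 between the H3K9me2 inputs of met-2 and set-25. The H3K9me2 ChIP of met-2 correlated at 0.62 with the H3K9me2 input of set-25, 0.46 with its own input and 0.33 with the H3K9me3 input of met-2. What makes the inputs differ was not tested.

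**Figure D3:**
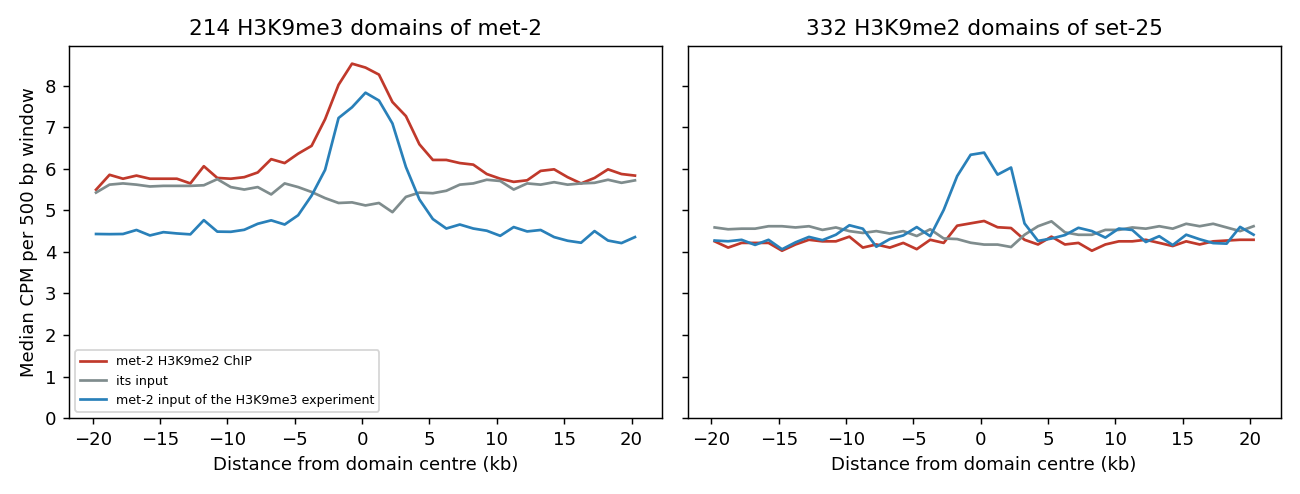
Median CPM per 500 bp window (y axis) against the distance from the domain centre in kb (x axis) for the met-2 H3K9me2 ChIP (red), its input (grey) and the met-2 input of the H3K9me3 experiment (blue). At the centre of the 214 H3K9me3 domains of met-2 (left) the ChIP reaches 8.43 CPM with its input at 5.12 and the other input at 7.83; at the 332 H3K9me2 domains of set-25 (right) the same columns stand at 4.74, 4.18 and 6.39 CPM.

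The 2563 enriched windows fell into 2 kinds, by whether H3K9me3 of met-2 exceeded 1 in the same window. It did in 1404 (54.8%), where 4.10% of all kept windows did, and did not in 1159. In the 1404 windows the median met-2 H3K9me2 ChIP was 8.13 CPM and its input 3.53 CPM. In the 1159 windows the ChIP was 4.67 CPM and the input 2.03 CPM, against 5.16 and 5.44 CPM over all kept windows. The ChIP was above the median of kept windows in 72.3% of the 1404 and in 43.3% of the 1159.

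Windows without H3K9me3 were scattered and thinly covered in their own input. In the met-2 input of the H3K9me3 experiment their median was 10.6 CPM. It was 9.86 CPM in the 1404 windows with H3K9me3, and 4.27 CPM over all kept windows. Of the 1159, 83.3% had no enriched neighbour and 8 lay in runs of 5 or more, whereas of the 1404 these figures were 36.8% and 331. On autosomes 68.2% of the 1159 lay on the arms, the outer 25% of a chromosome at either end, and 30.3% of the 1404, where the arms held 49.5% of kept windows. In the tenth of windows with the lowest input counts, a median of 78 counts, 7.86% were enriched, and these made up 897 of the 1159 and 605 of the 1404. In the tenth with the highest input counts 0.126% were enriched. This input is the denominator of the ratio that called the windows, so their low input follows at least in part from the choice. H3K9me2 of set-25 exceeded 1 in 354 of the 1159 (30.5%) and in 348 of the 1404 (24.8%), against 10.3% of all kept windows.

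Windows close to the floor of 20 counts were often enriched. The 781 windows whose lowest input held 20 to 24 counts had a median H3K9me2 of 0.15 with 13.8% enriched, and the 792 windows left out at 15 to 19 counts had a median of 0.15 with 13.3% enriched. Over the input of set-25 for H3K9me2, 342 of the 1404 and 51 of the 1159 exceeded 1, where 0.284% of all kept windows did. Over the met-2 input of the H3K9me3 experiment 121 (8.62%) and 30 (2.59%) did, no more than the 9.30% of all kept windows. The met-2 H3K9me2 ChIP that chose these windows is again the numerator. Their higher share over the set-25 input therefore follows at least in part from the choice.

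Among the 5 kb bins the input mattered as much. Of the 45 bins above 1, 16 also exceeded 1 over the H3K9me2 input of set-25 and 1 over the met-2 input of the H3K9me3 experiment. With the median ChIP window in place of any input, 21 of them remained among 60 bins above 1, of which 48 exceeded 1 for H3K9me3. These ratios share the met-2 H3K9me2 ChIP that chose the 45 bins, so some overlap follows from the choice. Over the set-25 input 17 bins exceeded 1, and 16 of these did so for H3K9me3. Over the met-2 input of the H3K9me3 experiment 61 bins exceeded 1 and 14 of these did so for H3K9me3, a ratio that has this same input as its denominator. Bins with H3K9me3 thus made up 100% of the bins above 1 with the own input, 94.1% with the set-25 input, 80% with no input and 23.0% with the H3K9me3-experiment input, against 4.17% of all bins.

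Enriched windows joined into 1835 runs, of which 1483 were single windows, 311 had 2 to 4 windows, 31 had 5 to 9 and 10 had 10 or more. The 10 long runs, 5 to 13 kb each and 73 kb in all, carried 0.167% of the ChIP and 0.0654% of the input. Of the 10, 9 lay in middle parts and 1 on an arm, and none on X. Ratios of named runs and bins are of their summed counts, without the added 0.1 CPM. H3K9me2 of the runs lay between 1.24 and 1.57 and H3K9me3 between 2.91 and 3.82.

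The longest run lay on I from 4058501 to 4071500. It held 9528 ChIP and 4939 input counts, a log2 ratio of 1.30 (95% counting interval 1.25 to 1.35), beside an H3K9me3 ratio of 3.57 in met-2 and an H3K9me2 ratio of 0.34 in set-25. A second run on I, from 4334001 to 4341000, held 4863 and 2343 counts, at 1.41. The highest run, on II from 8286001 to 8293000, held 4262 and 1837 counts, at 1.57 (1.49 to 1.65), and had the lowest H3K9me3 of the 10.

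Chromosomes III and IV each had neighbouring runs. On III these spanned 6764001 to 6769000 (1.36) and 6785501 to 6792000 (1.34). On IV they spanned 5988501 to 5994000 (1.24) and, after 1 window below the threshold, 5994501 to 5999500 (1.25). Another run on IV spanned 11979001 to 11986000 (1.39), where set-25 stood at 1.54. All of these lay in middle parts.

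Chromosome V held the only run on an arm, from 2784001 to 2793000, at 1.32 (1.24 to 1.40) with 3471 ChIP and 1780 input counts. It also had the highest H3K9me2 of the 10 in set-25, at 2.95, with 12321 ChIP and 3622 input counts. The other run on V, from 8477001 to 8485000, stood at 1.42 in met-2 and at -0.37 in set-25. Over the 10 runs, set-25 H3K9me2 exceeded 1 in 3 and lay below 0 in 3. The runs were chosen by their met-2 H3K9me2, so its range and that of set-25 cannot be compared. Over the H3K9me2 input of set-25, 7 of the 10 runs exceeded 1, with a range from 0.70 to 1.33, and over the met-2 input of the H3K9me3 experiment none did, with a range from -1.12 to 0.85. Both ratios have as numerator the same ChIP that chose the runs.

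**Figure D4:**
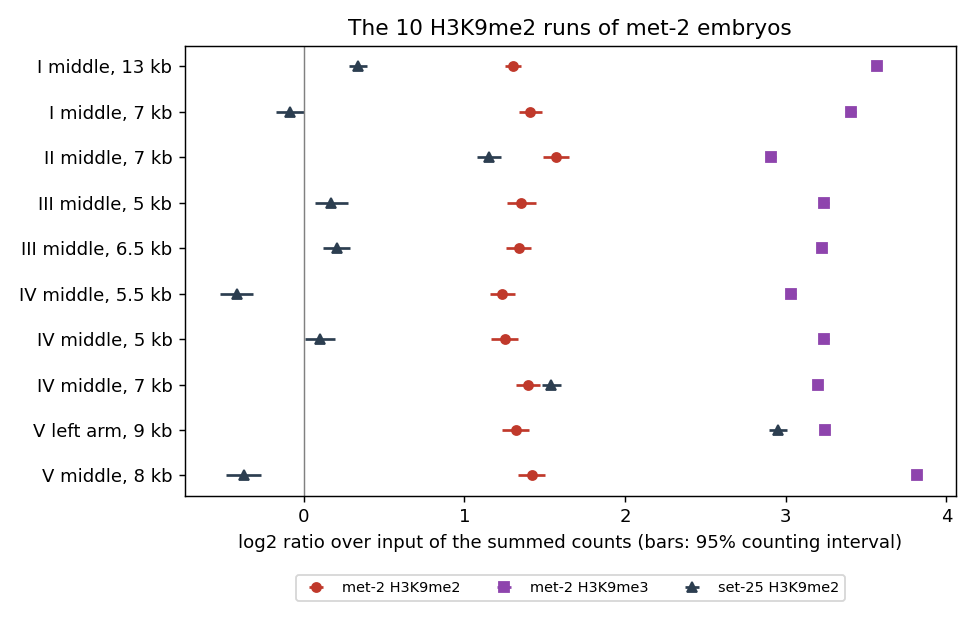
Log2 ratios over input (x axis) of summed counts in the 10 H3K9me2 runs of met-2 (rows), for met-2 H3K9me2 (red circles), met-2 H3K9me3 (purple squares) and set-25 H3K9me2 (dark blue triangles), with 95% counting intervals. Every window of a run had to exceed 1 in met-2 H3K9me2, which lies between 1.24 and 1.57; set-25 H3K9me2, which the choice did not use, lies between -0.42 and 2.95.

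The 10 highest 5 kb bins lay between 1.30 and 1.41, and 7 of them overlapped one of the runs. The 3 that did not were on V from 17135001 to 17140000 (1.37), on I from 14890001 to 14895000 (1.35) and on III from 6755001 to 6760000 (1.34). The bin on V held 2048 ChIP and 1011 input counts in met-2, and H3K9me2 stood there at 3.604 in set-25. The bin on I stood at 1.81 in set-25, and that on III at 0.16. H3K9me3 of met-2 lay between 2.84 and 3.81 in the 10 bins.

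Enriched windows occurred in all 16 chromosome parts, and their makeup differed. Over the own input, the right arm of V had the highest share, 1.95%, and the right arm of IV the lowest, 0.444%. On the measured part of X it was 0.743%. In set-25 the same shares ran from 0.906%, in the middle of V, to 47.3%, on the left arm of III. On that arm met-2 had 0.951% of windows enriched. Windows enriched for both H3K9me2 and H3K9me3 of met-2 made up 1.31% of all windows in the middle of III, 1.18% in the middle of I and 1.16% in the middle of V. Among arms this share was highest on the right arm of V, at 0.872%, and lowest on that of IV, at 0.060%. Shares by part were not computed over another input. Of all enriched autosomal windows 47.3% lay on arms over the own input, 29.4% over the H3K9me2 input of set-25 and 16.6% with no input.

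Of the 45 bins above 1, 30 lay in middle parts, 13 on arms and 2 on X, where these held 7953, 7773 and 3212 of all 18938 bins. Chromosome V had 13, I had 10, IV had 9, III had 7 and II had 4, out of 3953, 2887, 3304, 2649 and 2933 bins in that order. At the lower threshold of 0.5, 300 of 555 lay in middle parts, 209 on arms and 46 on X. The highest share above 0.5 was on the left arm of II, with 5.42% of its bins, and the lowest on the right arm of IV, with 0.123%.

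**Figure D5:**
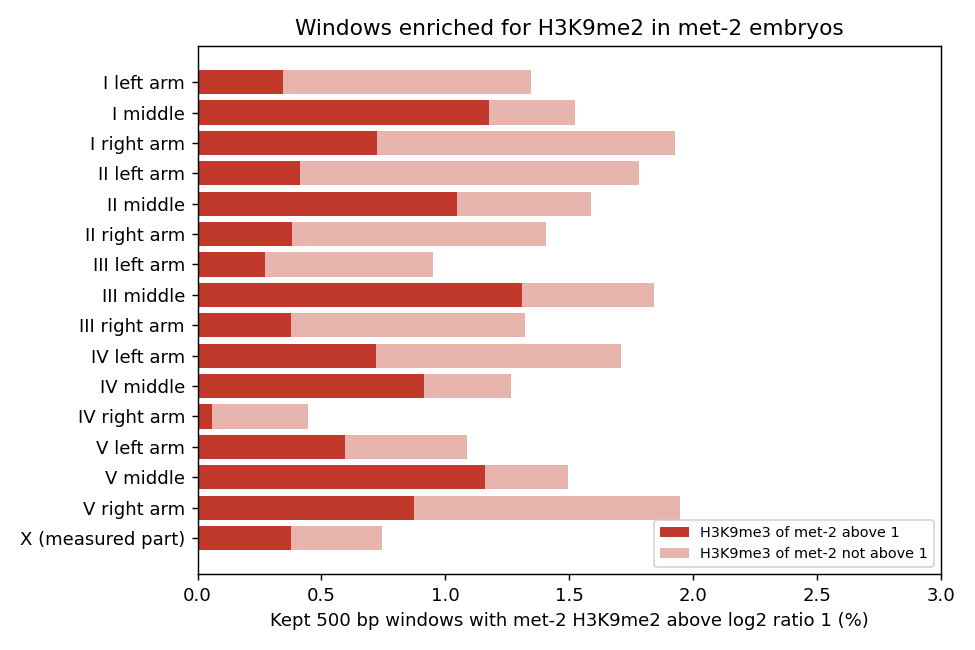
Percent of kept 500 bp windows with a met-2 H3K9me2 log2 ratio above 1 (x axis) in each chromosome part (rows), divided into windows with H3K9me3 of met-2 above 1 (dark) and not above 1 (light). The dark part is longest in the middle of III (1.31%) and shortest on the right arm of IV (0.060%).

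Over the own input, the right arm of IV stood apart on the low side. This arm is known in worms for its large cluster of piRNA genes. Its median met-2 H3K9me2 was -0.32, where the other 15 parts had medians between -0.07 and 0.10. The arm's median ChIP was 4.14 CPM, the lowest of the 16 parts, and its input 5.56 CPM. Of its 5 kb bins 224 (27.5%) lay below -0.5, out of 665 such bins in the genome. Over the H3K9me2 input of set-25 the median was -0.20, still the lowest of the 16 parts. Over the met-2 input of the H3K9me3 experiment it was 0.58, and only the middle of V was higher, at 0.59.

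Low bins were mostly on arms, with 600 of the 665 there, 49 in middle parts and 16 on X, although arms held 7773 of the 18938 bins. None of the 665 exceeded 1 for H3K9me3 of met-2. For H3K9me2 of set-25, 65 of them (9.77%) exceeded 1, against 10.6% of all bins. All 5 of the lowest bins lay on right arms. The lowest, on V from 19900001 to 19905000, held 620 ChIP and 1923 input counts, a log2 ratio of -1.28 (-1.41 to -1.15), and H3K9me2 stood there at 2.48 in set-25. The others were on IV from 15745001 to 15750000 (-1.18) and from 15545001 to 15550000 (-1.08), and on II from 13400001 to 13405000 (-1.11) and from 12100001 to 12105000 (-1.09). In set-25, H3K9me2 stood at -2.17 and -2.47 in these bins on IV and at 0.23 and -2.13 in those on II. Over the met-2 input of the H3K9me3 experiment, both bins on IV and the last on II turned to 0.55, 0.82 and 0.35, while the bin on V stood at -0.19 and the other on II at -0.52.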

How the data were processed

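Per the file headers, the authors deposited unscaled counts in windows of 500 bp, in 8 columns, 1 for each strain, mark and ChIP or input. Not given in the sources used here were the aligner, counter, genome build, the handling of duplicates and of multiply mapping reads, and whether a column sums both replicates. The gene table at hand is of WBcel235, which was not taken as the build of the windows, so no gene was placed. From the counts, CPM and log2 ratios were computed with Python 3.11.15, numpy 2.4.6 and pandas 2.3.3. A planned replicate test was not run, since there is 1 column per group, and no spread between samples could be estimated. Bins of 5 kb summed 10 windows and were used with at least 8 kept. Intervals are exact (Clopper-Pearson) 95% binomial intervals of summed counts (scipy 1.17.1), which cover counting error only. They treat reads as independent. PCR reads without molecular identifiers are not independent molecules, so the intervals may be too narrow even for counting error. Regions were named by rule: all runs of at least 10 adjacent enriched windows, the 10 highest and 5 lowest bins. The windows, lists and rules were chosen with earlier results of these data known. The scripts were tested on simulated data.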

Additional observations from a re-analysis of the deposited data

How the results depend on the processing

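Counts here are of met-2 H3K9me2, against 2563 windows, 45 bins, 10 runs, 47.3% of autosomal windows on arms and 54.8% with H3K9me3 as reported. Of all kept autosomal windows 49.5% lay on arms. The cause of the shifts was not tested, except that a higher threshold or pseudocount passes fewer windows by construction. Log2 thresholds of 0.5 and 1.5 gave 22542 and 186 windows, 555 and 0 bins, 90 and 0 runs, 51.0% and 42.4% on arms, and 29.4% and 78.5% with H3K9me3. A pseudocount of 1 CPM gave 819 windows, 25 bins, 4 runs, 31.4% and 78.8%, and 0.01 CPM gave 52.4% with H3K9me3. No input floor gave 50.1% on arms and 50.6% with H3K9me3, and a floor of 50 gave 42.3% and 59.5%.

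The met-2 input of the H3K9me3 experiment gave 17781 windows, 4 runs, 38.6% on arms and 5.42% with H3K9me3. The H3K9me2 input of set-25 gave 542 windows, 17 bins, 1 run, 29.4% and 76.6%. The mean of both met-2 inputs gave 391 windows, 3 bins, 1 run, 24.5% and 73.7%. No input gave 1375 windows, 16.6% and 71.4%. Centring on the median gave 59.0% with H3K9me3. With wider arms (1/3 of a chromosome each) 68.6% lay on them, but wider arms hold more of all windows by construction. The share of all kept windows on these wider arms was not computed. Bins of 10 kb and 2.5 kb gave 10 and 158 above the threshold. Runs of at least 5 windows numbered 41, and 21 when 1 lower window was allowed inside.

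Differences from flanks were examined with alternatives chosen after seeing the data. Against the met-2 input of the H3K9me3 experiment they turned to -0.47 at set-25 domains and -0.10 at H3K9me3 domains, with no input they were 0.16 and 0.50, and with flanks of 10 to 30 kb 0.36 and 0.67. The floor without the H3K9me3 input labelled set-25, also chosen then, left 45 bins and 10 runs. No paired analysis was possible because the table holds 1 column per group, and no replicate could be left out. At 137 ChIP counts in the median window, single windows are less reliable than bins.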
